A study of Mus musculus with 2031 samples.

Results

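The transcription factor genes described here are 6 Sox genes (Sox2, Sox5, Sox6, Sox8, Sox9 and Sox21) and 4 nuclear factor I (NFI) genes (Nfia, Nfib, Nfic and Nfix). They were chosen by name, as 10 of the 49671 gene identifiers in the counts. Each had 1 identifier, and all 10 passed the low-count filter of every comparison.

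SOX proteins bind DNA through an HMG box and bend it, usually together with a partner factor, and NFI proteins bind a palindromic site as dimers. In the developing spinal cord and brain SOX9 precedes and then works with NFIA at the switch from making neurons to making glia, and both stay on in mature astrocytes. SOX2 and SOX21 belong to the SoxB group of stem and progenitor cells, SOX5 and SOX6 to the SoxD group, which lacks an activation domain of its own, and SOX8 and SOX9 to the SoxE group together with SOX10 of oligodendrocytes.

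Single cells were sorted from cortex and hippocampus of C57BL/6J mice at postnatal day 56, with no transgene and no treatment. The sort kept live cells that carried ATP1B2 (the ACSA-2 antigen, an astrocyte surface protein) and lacked O1 (an oligodendrocyte antigen). Full-length cDNA was made with Smart-seq2, which has no molecular identifiers and does not mark the strand. There were 4 cell suspensions: cortex 1 and cortex 2 each came from 1 mouse of the same litter, and hippocampus 1 and hippocampus 2 each from 4 pooled littermates of 2 other litters. Brain area, litter and the pooling of mice therefore cannot be told apart. The suspension, and never the cell, was the replicate: cells of a type were summed within a suspension before any test. In the fits of brain area p-values measure the spread between 4 suspensions. In the fits of subtypes and of other cell types they measure the pooled spread of 17 and 13 sums, several from each suspension. AST4 and neurons had 2 such sums, and AST5 and endothelial cells 3.

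The authors' types were used as given: of 1982 typed cells 1781 were astrocytes, in 5 subtypes: AST1 (36.9% of astrocytes), AST2 (31.2%), AST3 (25.4%), AST4 (91 cells) and AST5 (26 cells). The other typed cells were mural (6.76% of typed cells), endothelial (30 cells), neuronal (17), microglial (11) and oligodendrocytic (9). Types and subtypes were found by clustering the same counts, and the study lists Nfia, Nfib and Nfix among the markers of AST4 and Sox9 among genes common to astrocytes, so differences of these genes between subtypes are not independent evidence. AST1 and AST4 were mostly hippocampal (82.95% and 97.8% of cells), AST2 was mostly cortical (94.2%), and all 17 neurons were hippocampal. The median cell of a suspension held 1351590 to 1545143 gene counts. All 8 astrocyte markers had a count in over 50% of astrocytes, with a summed level of 42970 to 44730 CPM (counts scaled to 1e6 gene counts). In AST4 5 of the 8 did, and Aldh1l1 had a count in 15.4% of its cells. Mural and endothelial cells carried their own markers, although only 4 of 7 mural markers had a count in over 50% of mural cells: Acta2, Tagln and Myh11, of smooth muscle, had one in 2.99 to 11.9%. Endothelial cells also held mural markers: Rgs5 had a count in all 30, Abcc9 in 50%, Pdgfrb and Kcnj8 in 46.7% each, Myh11 in 6.67% and the other two in none. The 7 summed to 7144 to 12490 CPM there against 21390 to 28250 CPM in mural cells, and the part of this in their levels was not tested. Of 6 neuronal markers Rbfox3 was at 0 in all 17 neurons. AST5 cells stood apart, with a median of 1.59% of counts outside exons against 10.7 to 14% in the other subtypes.

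Short stretches before annotated starts of members that hold the letters of a SOX or NFI site are shown as examples of what such a site looks like. Binding was not measured here. The stretches are from RefSeq on GRCm38.p6, which gave 16 promoters of 8 members around annotated starts. They are printed 5′ to 3′ on the strand of the gene with the matched letters in capitals. These starts can differ from the gene model used here for exon lengths. That model has Nfix at 84699876 to 84800344 of chromosome 8, so both Nfix stretches lie inside the gene. It begins Nfia at 97772734 of chromosome 4, far downstream of the Nfia stretch. Letters matched on the opposite strand appear as their reverse complement.
Nfia, chr4:97581834-97581874, plus strand, ACAAT on the opposite strand 91 bases before the start: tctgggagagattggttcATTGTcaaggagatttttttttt
Nfix, chr8:84776020-84776060, minus strand, ACAAT on the opposite strand upstream of the start: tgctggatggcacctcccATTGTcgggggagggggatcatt
Nfix, chr8:84773020-84773062, minus strand, AACAAAG upstream of another start: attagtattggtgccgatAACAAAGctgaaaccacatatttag
Sox2, chr3:34649932-34649972, plus strand, TTGGC 45 bases before the start: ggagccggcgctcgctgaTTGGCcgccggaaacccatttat
Sox8, chr17:25570733-25570773, minus strand, TTGGC on the opposite strand 69 bases before the start: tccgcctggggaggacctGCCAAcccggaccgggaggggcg

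On either strand, ACAAT was found in 6 of the 16 member promoters and in 31% of all 32851 promoters. AACAAAG was found in 4 of 16 and in 5.85% of all, and these were promoters of Sox6 and Nfix. TTGGC, which is contained in each end of the full NFI palindrome, was found in 8 of 16 and in 46.7% of all. The palindrome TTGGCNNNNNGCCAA was in 0 of 16 and in 0.0365% of all. A match is a description of letters, and the member promoters are too few to compare with the rest.

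Sox9 was the most abundant member in astrocytes per kilobase of exons and the only Sox gene found in nearly every one of them. Its level was 493.5 and 480.7 CPM in the cortical and 438.7 and 436.7 CPM in the hippocampal suspensions, or 462.4 ± 29.02 CPM (SD, n = 4). Across AST1, AST2 and AST3 it stayed between 411.8 and 508.5 CPM in every suspension, and the ranges of these subtypes overlapped. In AST4 it was 549.7 and 551.6 CPM in the 2 hippocampal suspensions, above every AST1, AST2 and AST3 sum on the CPM scale, but its fitted difference with TMM factors was 0.02 (SE 0.18) and it was not called. Outside astrocytes Sox9 was much lower: mural cells had 0.0556, 0, 25.1 and 0.0181 CPM in the order cortex 1, cortex 2, hippocampus 1, hippocampus 2, and 4.48% of mural cells had a count.

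**Figure D1:**
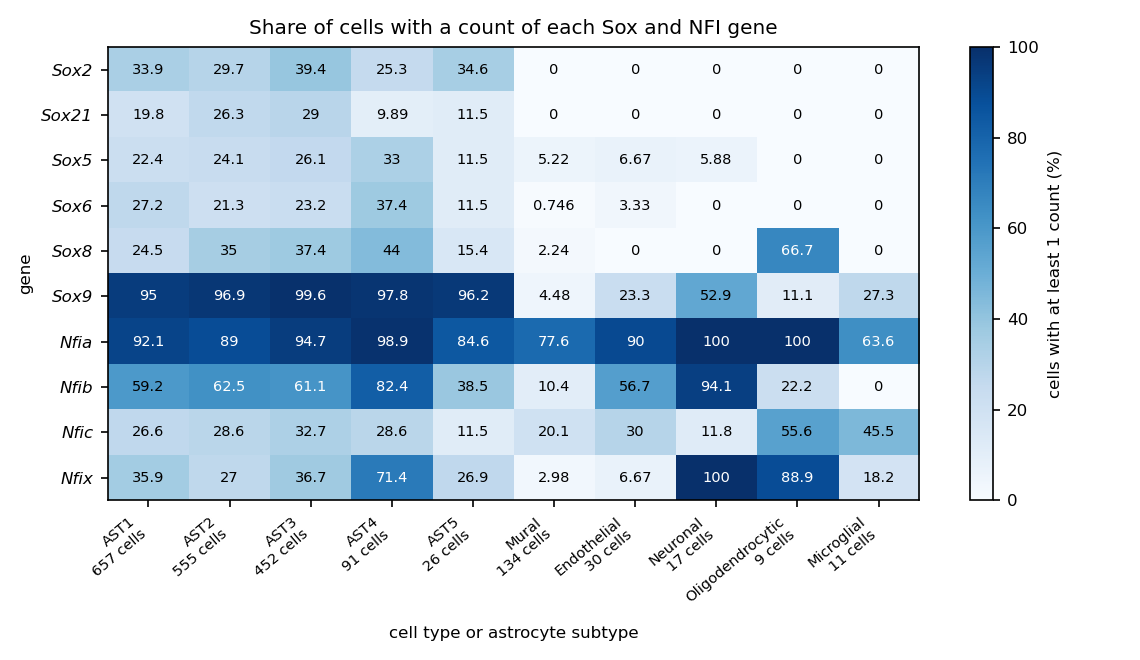
Percent of cells with at least 1 count of each Sox and NFI gene (rows) in each cell type (columns), as shades with the value written in each field. Sox9 and Nfia are present in over 84% of the cells of every astrocyte subtype, whereas Nfia alone is also frequent in all other types and Sox2 and Sox21 are at 0 in all of them.

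Sox8, the other SoxE gene, was found in 31.9% of astrocytes, at 124.4 and 124.2 CPM in the cortical suspensions and 86.98 and 106.02 CPM in the hippocampal ones. Oligodendrocytic cells were the one other type in which it was frequent. Of those 9 cells 6 had a Sox8 count, with 113.65, 292.6 and 107.55 CPM in the 3 suspensions that held any. Sox8 was not detected in endothelial, neuronal or microglial cells, which allows shares of up to 10%, 17.65% and 27.3%.

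Sox2 and Sox21 were found in astrocytes and in none of the other typed cells. A count of Sox2 was present in 33.6% and of Sox21 in 23.5% of astrocytes, and each had 0 counts in every other typed cell, which allows a share of up to 1.49% of those cells. Limits and intervals of this kind cover counting error only. Sox2 had 56.6, 40.7, 53.04 and 42.3 CPM in cortex 1, cortex 2, hippocampus 1 and hippocampus 2. Sox21 had 55.8, 71.3, 43.6 and 41.2 CPM in the same order, so its cortical values lay above its hippocampal ones while those of Sox2 were mixed.

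Sox5 and Sox6 were present in about the same share of astrocytes, 24.3% and 24.7%. Sox5 was at 68.9 ± 2.33 CPM and Sox6 at 63.8 ± 15.6 CPM (SD, n = 4). The even level of Sox5 did not hold within subtypes, where it ran from 0 CPM (AST5 of cortex 1, 8 cells) to 216.4 CPM (AST4 of hippocampus 2, 48 cells), and from 9.19 CPM (AST2 of hippocampus 2, 22 cells) upward in AST1 to AST4. Both genes were rare in mural cells: 5.22% had a count of Sox5 and 0.746% one of Sox6. Neither was found in oligodendrocytic or microglial cells, which allows shares of up to 33.3% and 27.3%.

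**Figure D2:**
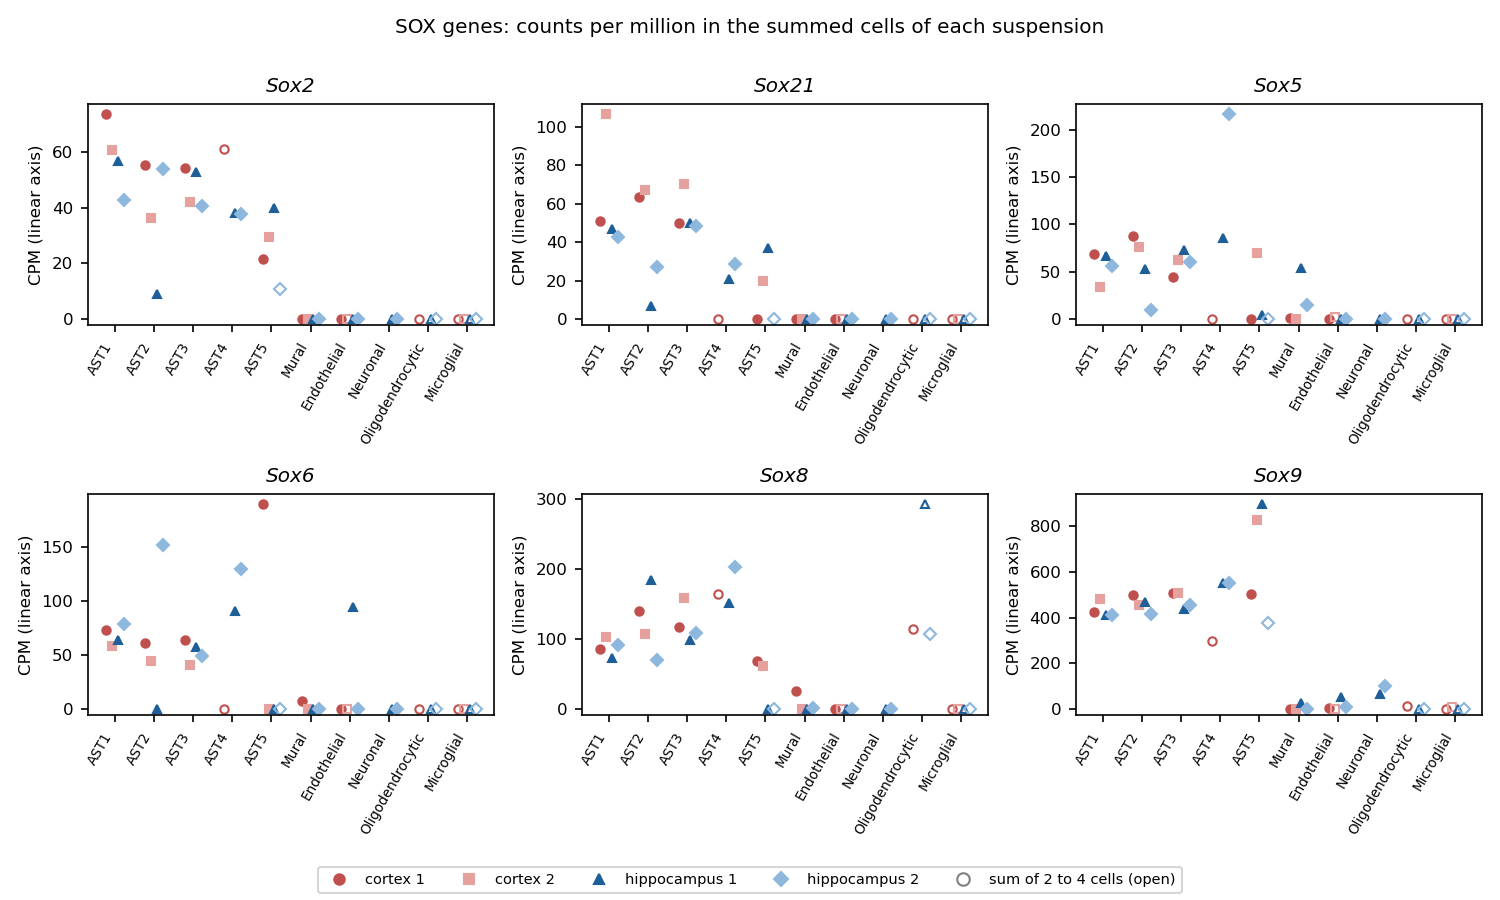
Level of the 6 Sox genes in CPM (linear axes, 1 panel for each gene) by cell type, with 1 point for each suspension and open points for sums of 2 to 4 cells. Sox9 forms a narrow band in the astrocyte subtypes, between 411.8 and 551.6 CPM in the sums of at least 5 cells of AST1 to AST4, and the panels of the other Sox genes spread more between sums.

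Nfia was the most abundant NFI gene of astrocytes per kilobase of exons and the least restricted member. It had 224.45 and 209.1 CPM in cortical and 319.9 and 310.2 CPM in hippocampal astrocytes, and 92.03% of astrocytes had a count. Every other type held it as well, in 63.6% of microglial, 77.6% of mural, 27 of 30 endothelial, and all neuronal and oligodendrocytic cells. Its level was 129.9 to 182.2 CPM in mural and 285.15 to 328.5 CPM in neuronal sums, so 1 neuronal value lay above and 1 below those of hippocampal astrocytes, and the mural ones lay below those of astrocytes in every suspension.

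Nfib was found in 61.6% of astrocytes at 180.8 ± 24.7 CPM (SD, n = 4). It was at 773.9 and 693.01 CPM in the neurons of hippocampus 1 and hippocampus 2, above the 197.95 and 203.1 CPM of the astrocytes of the same suspensions. It was found in 10.4% of mural cells and in 0 of 11 microglial cells, which allows a share of up to 27.3%. In endothelial sums it ran from 34.3 to 366.2 CPM, a spread that covers the astrocyte range.

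Nfix was the lowest NFI gene of astrocytes per kilobase of exons, and had 25.4, 20.1, 55.9 and 47.6 CPM in the order cortex 1, cortex 2, hippocampus 1, hippocampus 2. A count was present in 35.04% of astrocytes, 71.4% of AST4 cells, all 17 neurons, 8 of 9 oligodendrocytic cells and 2.99% of mural cells. Nfic was the most even member over all astrocytes, with 62.5, 62.8, 60.985 and 58.8 CPM, and had 44.1 to 70.3 CPM in mural cells, so these ranges overlapped. Within subtypes it was less even, from 0 CPM (AST5 of hippocampus 1, 6 cells) and 2.66 CPM (AST2 of hippocampus 1, 10 cells) to 101.6 CPM (AST3 of hippocampus 1, 65 cells).

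**Figure D3:**
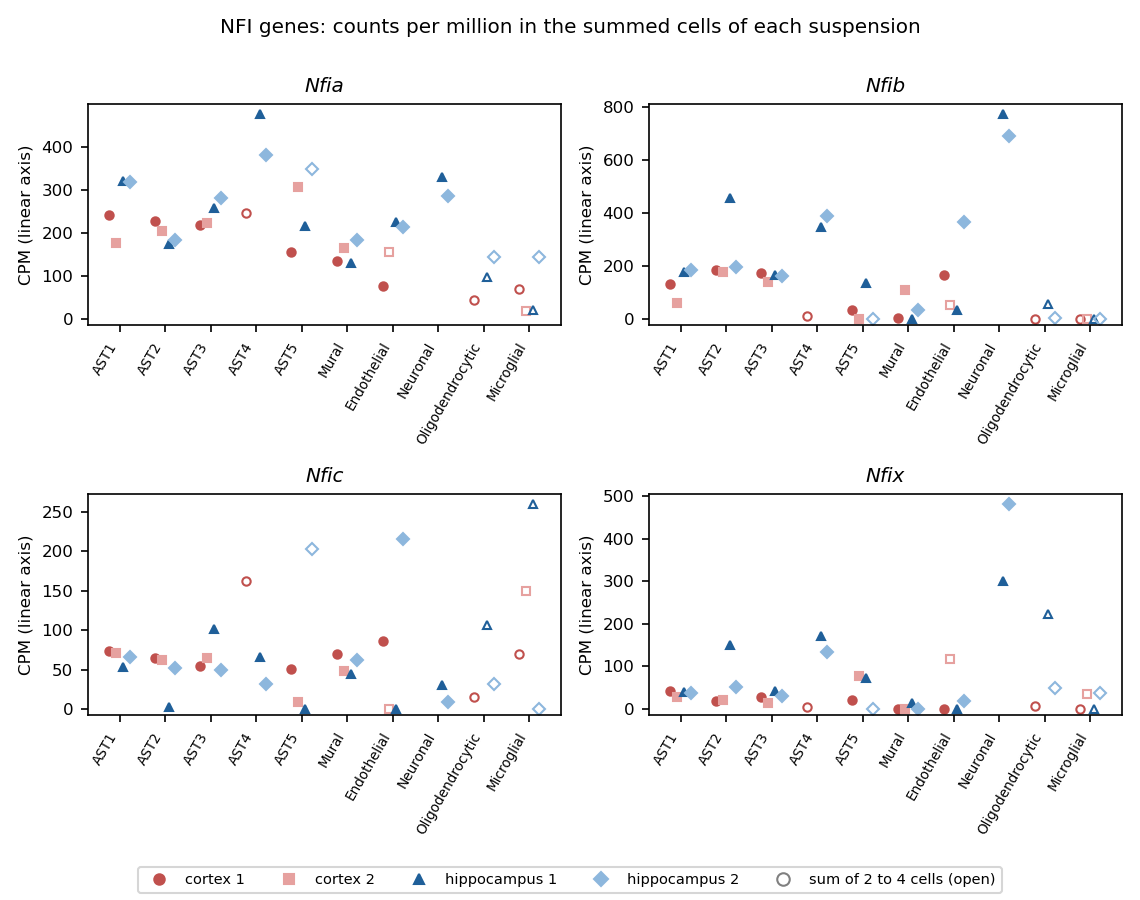
Level of the 4 NFI genes in CPM (linear axes, 1 panel for each gene) by cell type, with 1 point for each suspension and open points for sums of 2 to 4 cells. Nfia is present in all types, Nfix is high in AST4 (172.02 and 133.6 CPM) and neurons (300.7 and 480.7 CPM), and the Nfic points of astrocytes and mural cells overlap. Single small sums are also high for Nfix: AST2 (149.5 CPM) and oligodendrocytic cells (223.5 CPM) of hippocampus 1 and endothelial cells of cortex 2 (117.6 CPM).

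For an order of levels between genes, CPM was divided by the kilobases of all exons of the gene. On that scale the order in astrocytes was Sox9 (111.8), Sox8 (35.4), Nfia (24.4), Sox2 (23.4), Sox21 (13.9), Nfib (12.1), Nfic (9.24), Nfix (5.07), Sox5 (4.79) and Sox6 (4.30). The suspensions of Sox9 did not overlap with those of Sox8, those of Sox2 did not overlap with Sox21, those of Nfib not with Nfic and those of Nfic not with Nfix. All other neighbours overlapped, so Sox8 and Nfia, Nfia and Sox2, Sox21 and Nfib, and the 3 lowest genes are not ordered beyond their spread. With the longest transcript as the length, Nfib (19.8) stood before Sox21 and Nfix (6.80) came last.

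The makeup of each family is given as the share of each gene in its summed level. Sox9 made up 57.8% ± 0.928 (SD, n = 4) of the summed length-scaled level of the 6 Sox genes in astrocytes, and 56.3 to 59% as a mean in each of AST1 to AST4. Among NFI genes the shares in astrocytes were 47.8% Nfia, 23.9% Nfib, 18.7% Nfic and 9.59% Nfix. In AST4 Nfix made up 22.5% ± 1.21 (SD, n = 2) and in neurons 39.6% ± 10.5, and Nfic 7.80% and 2.24%. The summed level of the 4 NFI genes was 50.8 ± 8.93 CPM per kilobase in astrocytes, 92.1 ± 11.5 in AST4 and 133.3 ± 8.43 in neurons, and the summed Sox level was 193.7, 232.8 and 20.1 in the same order.

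**Figure D4:**
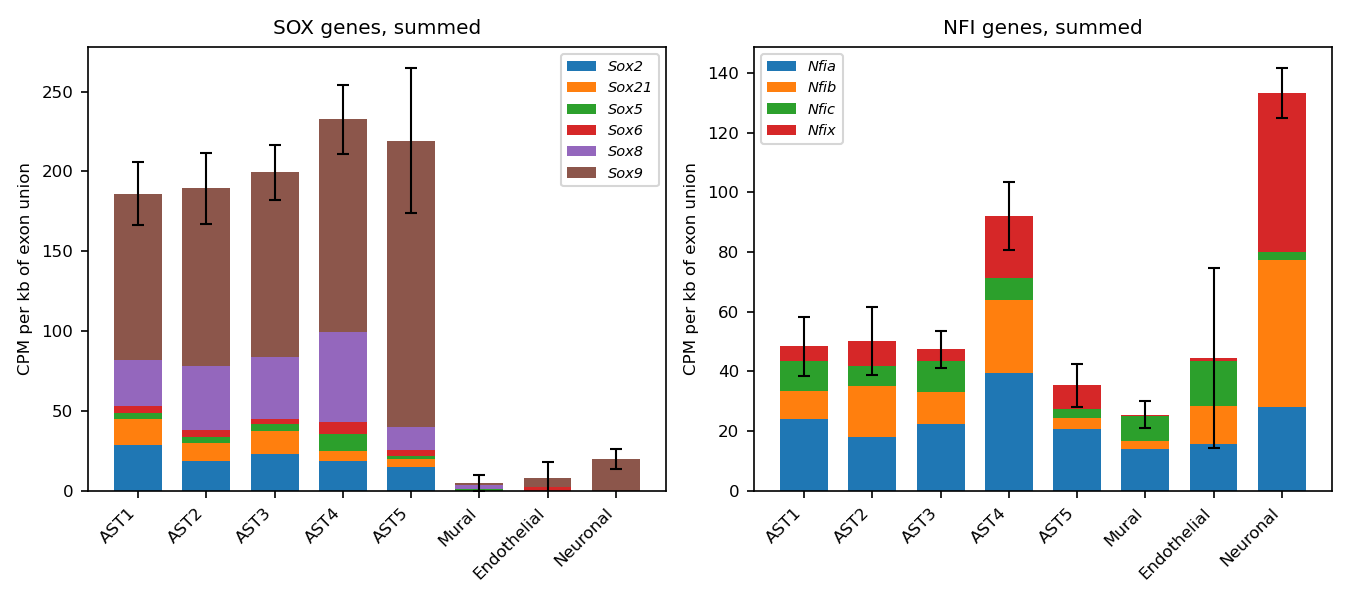
Summed level of the 6 Sox genes (left) and the 4 NFI genes (right) in CPM per kilobase of exons, as bars stacked by gene for each cell type (mean over suspensions, linear axis from 0, error bars 1 SD of the sum). Sox9 takes over 50% of the Sox bar in every astrocyte subtype, the NFI bar is 92.1 in AST4 and 133.3 in neurons, and the Nfix part of it is 22.5% and 39.6% there.

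The first comparison asked which members mark a subtype. Each subtype was compared with the others by edgeR's quasi-likelihood test on summed counts, with a term for area. A call means a p under 0.05 after Benjamini-Hochberg adjustment over all genes tested. None of the 10 members was called in AST1, AST2, AST3 or AST4, and none had an unadjusted p under 0.05 there. Over all 18233 genes 0.0384%, 0.0548%, 0.0% and 0.636% were called in AST1 to AST4. DESeq2 called no member in these subtypes either, with 5.2%, 4.83%, 3.99% and 11.5% of all genes, and limma on the mean over cells of log2(CPM + 1) called none in AST1, AST2 or AST3.

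In AST4 the Nfix sums of both hippocampal suspensions lay above all those of AST1 and AST3. Nfix was at 172.02 and 133.6 CPM in AST4 of hippocampus 1 and hippocampus 2, against 15.2 to 42.9 CPM in all AST1 and AST3 sums and up to 149.5 CPM in AST2, where the highest sum held 10 cells. Its fitted difference was 1.25 on the log2 scale (SE 0.68) with an adjusted p of 0.80 in this test. With sums of at least 20 cells, which leaves out those 10 cells and all AST5 sums, it was 1.58 (SE 0.34). The adjusted p was 0.026 in the same test, where 4.63% of all genes were called. The limma fit on mean log values gave 2.65 (SE 0.31) with an adjusted p of 2.2e-05, where 12.4% were called. Over the alternatives the edgeR and DESeq2 estimates stayed positive, and the gene was called in these 2 alternatives and in no other.

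The fitted differences of the other NFI genes in AST4 were smaller. Nfia was at 475.7 and 380.1 CPM in AST4 and at 175.6 to 319.3 CPM in AST1. Its fitted difference was 0.52 (SE 0.31, adjusted p 0.90 in edgeR's quasi-likelihood test). Limma on mean log values, which called 12.4% of all genes here, called Nfia at 1.56 (SE 0.48, adjusted p 0.046). Nfib was at 347.8 and 389.6 CPM in AST4 and at 60.9 to 184.03 CPM in AST1, but at 456.8 CPM in the 10 AST2 cells of hippocampus 1, with a fitted difference of 0.32 (SE 0.79, adjusted p 1.00 in edgeR's quasi-likelihood test). Nfic was not higher in AST4, at 65.4 and 32.04 CPM. Among Sox genes Sox5 had the largest fitted difference in AST4, 1.45 (SE 1.31), from 85.4 and 216.4 CPM. Both AST4 sums of Sox8, the higher at 202.7 CPM, lay above the 73.4 to 103.3 CPM of AST1, with a difference of 0.77 (SE 0.98), and neither was called. Sox2 and Sox21 lay at the low end, Sox2 at 38.2 and 37.8 CPM and Sox21 at 20.9 and 28.5 CPM, and neither was called.

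Plate by plate AST4 was set against AST1 alone, on CPM without the TMM factors of the fit. Those factors were 1.11 and 1.12 in the AST4 sums and 0.854 and 0.842 in the hippocampal AST1 sums. The fit therefore puts AST4 lower relative to AST1 than plain CPM does. AST4 and AST1 cells shared 14 hippocampal plates with at least 3 cells of each. The mean log2(CPM + 1) of Nfix was higher in AST4 on 13 of 14 plates, of Sox9 on 13, of Nfia on 12, of Nfib on 11, of Sox8 on 10 and of Sox5 and Sox6 on 9 each. Sox21 was lower in AST4 on 11 plates and Sox2 on 10, and Nfic was higher on 7 and lower on 7. By the share of cells with a count, AST4 was higher on 14 plates for Nfix, on 11 each for Sox9, Sox8, Nfia and Nfib, on 8 each for Sox5 and Sox6, and on 5 for Nfic, which was lower on 9; Sox21 was lower on 11 and Sox2 on 10. Cells of a plate share a suspension, so plates are not replicates and no test was made. The median cell of AST4 held 1405690 gene counts and that of AST1 1431483. At this depth the median number of all genes with a count was 2562 in AST4 and 1992 in AST1. How often other genes were higher in AST4 on a plate was not computed, and the part of this in the plate counts was not tested. After thinning every cell to 50000 counts Nfix was still found in 53.7% and 52.1% of the AST4 cells of the hippocampal suspensions against 22.5% and 23.7% of the AST1 cells.

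In AST5 1 member was called, Nfib, where 17% of all genes were called. Nfib was at 34.9, 1.21 and 135.7 CPM in AST5 of cortex 1, cortex 2 and hippocampus 1, whereas the AST1, AST2 and AST3 sums were at 60.9 CPM or above. Its fitted difference was −2.59 (SE 0.77) with an adjusted p of 0.034 in edgeR's quasi-likelihood test. The call was lost without cortex 1, without hippocampus 1 and without hippocampus 2, with adjusted p of 0.15, 0.0799 and 0.096. It was also lost with total gene counts as the library size (0.117) and without the area term (0.0535). In the hippocampal suspensions alone the difference was −1.535, but AST5 had 1 sum of 6 cells there, too few to test the call. The median gene had a fitted difference of −4.55 in this comparison (−0.05 with limma on mean log values) and the median member one of −1.71. Sox9 was at 502.2, 829.3 and 896.2 CPM in AST5, and the size of its difference depended on the scaling: 0.00 (SE 0.14) with TMM factors, but 0.69 (SE 0.15) with an adjusted p of 0.0056 when library size was total gene counts, by edgeR's quasi-likelihood test in both. AST5 cells nearly lacked counts outside exons, as given above, and the part of this in the values was not tested.

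Other cell classes were compared with astrocytes of all subtypes in 1 fit. In these fits the median of all genes was −1.36 in mural, −2.60 in endothelial and −2.34 in neuronal cells. Scaling by total gene counts moved it by 0.57, 0.77 and 1.0. In limma on mean log values it was −0.04, −0.02 and −0.01, so these medians depend on the fit and its scale. Members are given beside them, and whether they are an offset common to all genes was not tested. In bulk sums fewer cells with a gene and less RNA in each cell cannot be told apart, and the shares above give the first of these.

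In mural cells 4 of 10 members were called and all were lower, where 15.1% of all genes were called. Sox9 was at 6.29 CPM as a mean of 4 suspensions against 462.4 CPM in astrocytes, with a fitted difference of −8.87 (SE 2.59) and an adjusted p of 0.046 in edgeR's quasi-likelihood test. Nfia was at 153.1 against 265.9 CPM, with an adjusted p of 0.030 and a difference of −1.36 (SE 0.33), the same as the median of all genes. Sox2 and Sox21 were called at an adjusted p of 0.030, and because their mural sums were at 0 their fitted values give no size. With the suspension as a block no member was called, and leaving out any 1 suspension left 0 or 1 (Sox9, without hippocampus 1). DESeq2 called 6 members and 28.6% of all genes, and limma on mean log values called 8, all but Nfia and Nfic, and 22.8% of all genes.

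In endothelial cells 2 of 10 members were called and both were lower, where 5.61% of all genes were called. Nfia was at 171.9 against 265.9 CPM (fitted difference −1.59, SE 0.37, adjusted p 0.038 in edgeR's quasi-likelihood test), which is less far below astrocytes than the median gene. Sox5 was at 0.0213 against 68.9 CPM with an adjusted p of 0.036 in the same test. Both calls were lost with the suspension as a block, while DESeq2 called 6 members and 36.5% of all genes. A minimum of 10 cells leaves 1 endothelial sum (hippocampus 2, 12 cells), too few to test the calls. Nfib and Nfic had means at or above those of astrocytes on the CPM scale, 189.4 against 180.8 and 100.6 against 61.3, whereas their fitted differences with TMM factors were −0.60 and −0.01 and turned to 0.14 and 0.72 with total gene counts as the library size. These means rest on hippocampus 2, with 366.2 CPM of Nfib and 215.7 CPM of Nfic. Without it the fitted differences were −2.10 and −1.77.

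In neurons no member was called by edgeR's quasi-likelihood test, where 2.86% of all genes were called. An unadjusted p under 0.05 was found for 5 members and for 4654 of all 17404 genes. DESeq2 called all 6 Sox genes as lower and 30.4% of all genes, and limma on mean log values called 8 members and 27% of all genes. In the limma fit Nfix was higher by 5.71 (SE 0.34) and Nfib by 3.61 (SE 0.85) on the log2(CPM + 1) scale, and the Sox genes were lower. The edgeR estimates of these NFI genes were 0.20 (SE 3.16) for Nfix and 1.12 (SE 1.73) for Nfib. Nfix was at 300.7 and 480.7 CPM in the 2 neuronal sums, above the 55.9 and 47.6 CPM of astrocytes from the same suspensions. Nfia was at 328.5 and 285.15 CPM against 319.9 and 310.2 CPM, and its fitted difference of −1.14 with TMM factors was −0.05 with total gene counts and 0.09 in the limma fit.

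Of the 6 Sox members Sox9 was the 1 with more than a trace in neurons. Of the 17 neurons 9 had a Sox9 count, with a median of 126.5 CPM in those cells, against 414.8 CPM in astrocytes with a count. The neuronal sums had 14.8% and 23.2% of the Sox9 level of astrocytes from the same suspension, but 0.195% and 0.0497% of the summed level of the 7 astrocyte markers other than Atp1b2, the sort antigen. In mural cells of hippocampus 1 the figures were 5.72% for Sox9 and 1.19% for the markers, whereas in the other 3 mural sums Sox9 was at 0.0113% or less, below the markers, which were at up to 0.774%. Whether RNA of other cells had a part in the Sox9 counts of these cells was not tested.

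The last comparison set hippocampal against cortical astrocytes. No member was called in all astrocytes, in AST1 or in AST3, and neither was any other gene (0.0% in each fit) by edgeR's quasi-likelihood test. At an unadjusted p under 0.05 there were 4 members in all astrocytes (Nfia, Nfix, Nfib and Sox21), 1 in AST1 (Nfia) and 0 in AST3. Over all genes 2609 of 19160, 2023 of 15521 and 1547 of 14960 were under that value in the same order. DESeq2 called Nfia, Nfib and Nfix in all astrocytes, where it called 9.7% of all genes, and Nfia in AST1 and AST3, where it called 17.5% and 13.8%, so 1 of 10 members is no more than the share of all genes there. Limma on mean log values called Nfix and Sox21 in all astrocytes, with 2.64% of all genes, and no member in the subtypes.

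Nfia and Nfix had the clearest separation between areas. Nfia was at 315.04 CPM as a mean of the hippocampal and 216.8 CPM of the cortical suspensions, a fitted difference of 0.56 (SE 0.07, unadjusted p 0.0012, adjusted p 0.17 in edgeR's quasi-likelihood test). Nfix was at 51.7 against 22.7 CPM, a difference of 1.21 (SE 0.19, unadjusted p 0.0038, adjusted p 0.21 in the same test). AST4, nearly all hippocampal, is included in these sums. Without AST4 the values of Nfix were 25.4, 20.1, 42.8 and 36.6 CPM and those of Nfia 224.4, 209.1, 302.3 and 301.3 CPM, and neither pair of areas overlapped. These sums still mix subtypes in different shares, with AST1 mostly hippocampal and AST2 mostly cortical. Area and subtype mix cannot be told apart in them.

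Within subtypes the area difference was uneven. In AST1 Nfia was at 241.1, 175.6, 319.3 and 316.95 CPM (difference 0.65, SE 0.19) and Nfib at 133.5, 60.9, 177.1 and 184.03 CPM (0.94, SE 0.42), while Nfix was at 42.9, 27.2, 39.3 and 37.5 CPM, with overlapping areas. In AST3 Nfia differed by 0.34 (SE 0.13) in the edgeR fit and by −0.02 on mean log values, and Nfix by 0.77 (SE 0.48). Area was not tested within AST2, whose hippocampal sums held 10 and 22 cells. There Nfia ran the other way, at 226.66, 204.16, 173.12 and 182.76 CPM in the order cortex 1, cortex 2, hippocampus 1, hippocampus 2. Nfib (186.72, 177.42, 456.8 and 197.54 CPM) and Nfix (18.989, 20.469, 149.5 and 52.419 CPM) were higher in both hippocampal sums. A test of the difference between the AST1 and AST3 area effects called 0 of 17213 genes (1559 at an unadjusted p under 0.05), and no member was near the threshold, with adjusted p from 0.66 upward by edgeR's quasi-likelihood test. Over all astrocytes, where the mix of subtypes differs between areas, Sox9 was lower in hippocampus by 0.13 (SE 0.05) and Sox8 by 0.34 (SE 0.13) on the log2 scale. Neither was called. Within AST1 and AST3 the differences were −0.10 (SE 0.14) and −0.13 (SE 0.10) for Sox9, and −0.17 (SE 0.26) and −0.36 (SE 0.23) for Sox8.

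**Figure D5:**
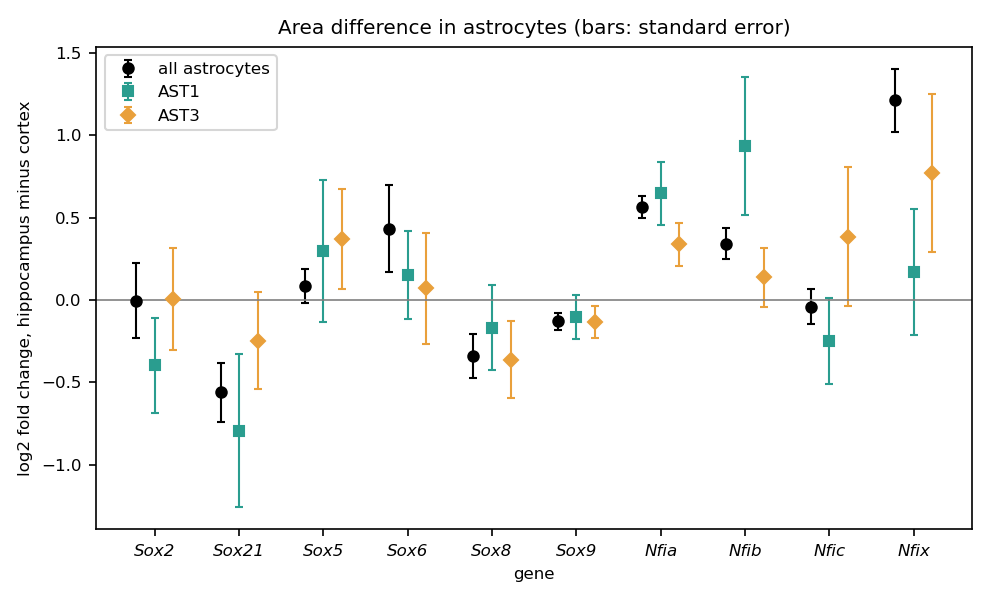
Fitted log2 difference, hippocampus minus cortex, on the vertical axis, for each of the 10 genes in all astrocytes, AST1 and AST3, with bars of 1 standard error. Nfia, Nfib, Nfix, Sox5 and Sox6 lie above 0 (higher in hippocampus) in all 3 fits. Sox8, Sox9 and Sox21 lie below 0 in all 3, and Sox2 and Nfic are mixed. Some bars reach across 0, among them that of Nfix in AST1, and none passed the adjusted threshold.

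Other genes of the Sox family were taken from a list. Of the 13 other Sox genes listed, 8 were tested between classes. Sox18, an endothelial factor, was called as higher in endothelial cells, at 1020.8 ± 147.6 CPM (SD, n = 3) and in 86.7% of cells against 0.112% of astrocytes. Sox17 was found in 63.3% of endothelial cells. Sox10 was found in 8 of 9 oligodendrocytic cells and in 0.168% of astrocytes. Sox1, Sox11 and Sox12 were called as lower in mural cells, and none was called among the 7 tested between subtypes and the 6 to 8 tested between areas. Over all genes 15.1% were called in mural and 5.61% in endothelial cells. Sox1, a SoxB gene of progenitors like Sox2, had a count in 31.9% of AST4 cells and in 8.22% of AST1 cells.

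Genes described as bound or regulated by SOX9 or NFI factors in glia did not move as 1 group. Of the 10 listed, 1 was called higher and 2 lower in AST4, where 0.636% of all genes were called. Fabp7, a fatty acid binding protein of radial glia, was higher by 1.67 (SE 0.25, adjusted p 0.0033 in edgeR's quasi-likelihood test), while the mature astrocyte genes Aldh1l1 and S100b were lower by 3.29 and 3.36 on the log2 scale. In AST5 S100b was called as higher, and Slc1a3 and Mmd2 as lower, in the fit with TMM factors. These factors were 1.34 to 1.63 in the AST5 sums. The fitted difference of Mmd2 was −0.64, but on plain CPM it was not lower, with means of 2916.4 in AST5 and 2835.9 in all astrocytes. In mural cells 5, in endothelial cells 3 and in neurons 4 of the 10 were called, all lower, among them Slc1a3, Gfap and Aldh1l1 in each. Over all genes 15.1%, 5.61% and 2.86% were called in these fits and 17% in AST5, and in each of them most calls were lower. None was called between areas.

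Of 14 neurogenic lineage genes, 11 were tested between subtypes and 1 was called in AST4, where 0.636% of all genes were called. This was Sfrp1, a secreted Wnt modulator, at 86.56 ± 0.776 CPM in AST4 (SD, n = 2). Its AST2 and AST3 sums reached 12.6 and 18.6 CPM, but 1 AST1 sum was at 110.35 CPM, above those of AST4. Emx1, a forebrain homeobox factor, was not called but had a count in 40.7% of AST4 cells against 1.83% of AST1 cells. Thbs4, Frzb, Sfrp1 and Emx1 were among the genes of this list called as lower in mural cells than in astrocytes, and Frzb was also lower in endothelial and neuronal cells.

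Some members overlap another gene, and without strand reads in shared exons cannot be assigned. E130114P18Rik shares exons with Nfia on the opposite strand. It was at 156.6 ± 2.36 CPM in AST4, where 54.9% of cells had a count, against 66.7 CPM and 27.9% in all astrocytes, and at 0 in mural and endothelial cells, where Nfia was present. 2810468N07Rik shares exons with Sox8 and was found in 8 of 9 oligodendrocytic and 9.77% of astrocytic cells. Sox2ot, in whose intron Sox2 lies, was found in 7 of 9 oligodendrocytic cells, in which Sox2 had no count. Gm11266, which lies within Nfib without sharing exons, was at 0 in all 26 AST5 cells. It had a count in 21.97% of the astrocytes with and 22.4% of those without an Nfib count.

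Single astrocytes held a mean of 4.52 of the 10 members, 2.35 Sox and 2.17 NFI genes. The mean was 5.29 in AST4, 3.42 in AST5, 3.65 in neurons and 1.24 in mural cells. All 4 NFI genes had a count in 16.5% of AST4 and 6.85% of AST1 cells. The number of all genes with a count differed between types as well. Its median was 2147 in all astrocytes, 1992 in AST1, 2562 in AST4, 1674 in AST5, 2840 in neurons and 1627 in mural cells. The part of this in the member counts was not tested. Correlations were taken within AST1, AST2 or AST3 cells of a suspension, in 11 sets, and AST4 and AST5 were left out. Over 45 pairs of members the median correlation of log2(CPM + 1) across cells ran from −0.07 to 0.08. Most members had no count in most of these cells, and the part of this in the correlations was not tested. Sox9 and Nfia, the members found in the largest shares of astrocytes, had a median of 0.08, above 0 in 8 of the 11 sets, and Sox2 and Sox9 one of 0.06, above 0 in all 11. These values are weak, and are given as a description.

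Across the 26 sums of types and suspensions, the genes whose pattern was most like that of Sox9 among 19211 included Mt3 (Pearson's r 0.921), Phyhipl (0.920), Il18 (0.920) and Pfn2 (0.914). The nearest member was Sox2 (0.849). For Nfia they were Atp6v0e2 (0.780), Wbp2 (0.758), E330013P04Rik (0.734), Scrn1 (0.733) and Scg5 (0.732). These sums share suspensions and differ in depth and cell number, so the values are descriptions only.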

How the data were processed

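The members and gene lists were chosen with earlier results of these data known. The files the authors deposited hold unnormalized read counts, 1 file a cell. Per the submitters' notes reads were checked with FastQC 0.11.4 and aligned with STAR 2.5.2b to GRCm38.p5, and uniquely mapped reads were counted with HTSeq. The strand setting is not given in the sources used here. Of 2031 cells 2030 were used, since 1 had no file of its own, and 33 cells that the list of types lacks and 15 without a type entered no comparison. Of the 2031 columns of the table of all cells 8 were read and had the same totals as the cells' own files, and 2023 were not used. Spike-ins and reads outside genes were left out of library sizes. The range of counts per cell was 600758 to 3238215.

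Counts were summed per type and suspension, for at least 5 cells, and fitted with edgeR 4.0.16 in R 4.3.3 (TMM, its low-count filter, robust quasi-likelihood, Benjamini-Hochberg). Differences are fitted log2 values with their standard error, and CPM is counts scaled to 1e6 gene counts of a sum. Sums of different types from 1 suspension share its mice, so the suspension pairs them, and a fit with it as a block was an alternative. Other alternatives were DESeq2 1.42.0, limma 3.58.1 on mean log2(CPM + 1), other size factors, no filter, other minimum cell numbers, cells thinned to 50000 counts, and each suspension left out. The limma fits of types, the total count scaling and the test of area effects between subtypes were chosen after seeing the data. The steps were tested on simulated data. All 10 members were named, and from the lists the genes called in a comparison. A few list genes that were not called (such as Sox1, Sox10, Sox17 and Emx1) were named after their values were seen, and some genes that the rules would name are not reported here. Subtype comparisons weighted the other subtypes by cell number.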

Additional observations from a re-analysis of the deposited data

Results flagged for a closer look

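In 58 groups of 4 suspensions, 8 had 1 suspension far from the other 3 by Dixon's test at the 95% level, and chance gives about 1 such group in 20. Of the groups, 4 are mural, where few cells hold the gene.
Sox9 in mural cells was high in hippocampus 1 (25.1 CPM), as was Nfix (13.03 CPM). Sox8 (25.7 CPM) and Sox6 (7.85 CPM) in mural cells were high in cortex 1. Sox21 was high in cortex 2 in both AST1 (106.4 CPM) and AST3 (70.2 CPM). Nfib was high in AST2 of hippocampus 1 (456.8 CPM), a sum of 10 cells. Sox5 in astrocytes without AST4 was low in hippocampus 2 (53.9 CPM).

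Cells that entered no comparison also held members. Among the 33 cells absent from the list of types a count was present in 96.97% for Nfia, 90.9% for Sox9, 51.5% for Nfib, 39.4% for Sox8, 30.3% for Nfic and for Nfix, 24.2% for Sox2 and for Sox5, 21.2% for Sox21 and 12.1% for Sox6. Among the 15 cells listed without a type it was present in 86.7% for Nfia and 60% for Sox9.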

How the results depend on the processing

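Of the single member differences recomputed under an alternative, 1282 kept their side of the threshold, 58 passed it only under the alternative and 50 lost it. None that was called in either fit changed direction. Uncalled differences that changed direction are counted among the 1282. The number of members called was 2 in endothelial, 4 in mural and 1 in AST5 cells and 0 elsewhere. With DESeq2 it was 6 in endothelial, 6 in mural, 6 in neuronal and 4 in AST5 cells, and for area 3 in all astrocytes, 1 in AST1 and 1 in AST3. With limma on mean log values it was 7 in endothelial, 8 in mural, 8 in neuronal, 2 in AST4 and 4 in AST5 cells, and 2 for area in all astrocytes. With thinned cells it was 6 in endothelial, 5 in mural, 2 in AST5 cells and 1 for area in all astrocytes. Of all genes 12.8%, 15.5%, 22.9% and 1.73% were called in the same order, so the AST5 count is near its share of all genes. With total gene counts as library size it was 1 in endothelial and 2 in mural cells, where 5.54% and 14.7% of all genes were called. With other size factors (RLE) it was 1 in endothelial and 3 in mural cells, where 5.26% and 14.7% were called. Without the filter it was 0 in endothelial and 0 in mural cells, where 2.05% and 2.49% of all genes were called. With sums of at least 10 cells it was 3 in mural cells, where 17% were called. Endothelial cells then had 1 sum, so no count is given for them. With sums of at least 20 cells it was 1 in AST4 (4.63% of all genes), and without the area term 0 in AST5 (18% of all genes). Leaving out 1 suspension gave 0 to 1 in endothelial, 0 to 1 in mural and 0 to 2 in AST5 cells. Of all genes 1.23% to 2.81%, 1.21% to 1.92% and 7.29% to 12.4% were called in the same order. The cause was not tested.

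With the suspension as a replicate block 0 members were called in endothelial and 0 in mural cells, 1 in AST5 and 0 in the others, so the pairing changed no other call. The share of all genes called moved as well: from 15.1% to 2.33% with the block in mural cells, from 5.61% to 1.87% in endothelial cells, and in AST4 from 0.636% to 11.5% with DESeq2, 12.4% with limma and 4.63% with sums of at least 20 cells, and 0.0846% without hippocampus 2. DESeq2 called 36.5% of genes in endothelial, 28.6% in mural, 30.4% in neuronal and 43.7% in AST5 cells, and limma 27.9%, 22.8%, 27% and 18.5%, so the 4 of 10 members that DESeq2 called in AST5 are near its share of all genes. In AST1, AST2 and AST3 DESeq2 called 5.2%, 4.83% and 3.99%. With the other subtypes weighted equally 5.52%, 5.25%, 4.95% and 2.82% were called in AST1 to AST4, and 0 members. For area DESeq2 called 9.7% of genes in all astrocytes, 17.5% in AST1 and 13.8% in AST3, and limma 2.64% in all astrocytes.

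Shares of astrocytes with a count fell after thinning to 29.4% for Sox2, 19.7% for Sox5, 26.7% for Sox8, 92.7% for Sox9, 86.5% for Nfia, 46.5% for Nfib, 24.9% for Nfic and 21.1% for Nfix. Requiring 5 counts gave 21.9% for Sox5, 95.7% for Sox9, 52.2% for Nfib and 29.8% for Nfix. There were 2 suspensions for each area, 30 endothelial and 17 neuronal cells, and whether this number set the counts of calls was not tested.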
